A study of Homo sapiens with 15 samples.

Results

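The probe sets described here are the 11721 on the array to which the platform annotation gives no gene symbol. They were chosen by that absence alone, from the 54675 probe sets in the deposited values, after 62 control probe sets were left out. A further 41091 probe sets had 1 gene symbol and 1801 had several. A probe set that the annotation does not list is unnamed here, which does not say that it lies outside a gene, and none was given a gene name or a sequence.

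The study compared CAL51 cells, which come from a triple-negative breast tumour, with CALDOX, a line selected from CAL51 by long culture in 0.4 µM doxorubicin and kept in that drug. Total RNA from 3 independent cultures of each of 5 conditions was hybridized to 15 arrays. The conditions were untreated CAL51, CAL51 given 0.4 µM doxorubicin for 24 h, CAL51 given the same dose for 48 h, untreated CALDOX, and CALDOX that had 3 drug-free passages and then 24 h in 4 µM doxorubicin. The 24 h doses therefore differed between the lines, the labels do not say whether the untreated CALDOX cultures were free of drug, and CALDOX is a single derived line.

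Doxorubicin is an anthracycline that traps topoisomerase II on DNA and leaves double-strand breaks, to which cells with working p53 respond by raising CDKN1A, MDM2 and other targets. A probe set on this kind of array is a group of short probes against the 3′ end of a transcript cluster that was assembled from cDNAs and expressed sequence tags. Clusters without a named gene can be unspliced or intronic RNA, transcripts running past an annotated gene end, antisense or other noncoding RNA, or genes that a given annotation release leaves out. The suffix of the identifier describes the probes: _at marks probes unique to 1 target, _a_at probes shared by transcripts of a single gene, _s_at probes shared by several transcripts, and _x_at probes that may hybridize to unrelated sequences.

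The unnamed probe sets lay lower on the intensity scale than the named ones. Their mean over the 15 arrays had a median of 6.06 on the log2 scale, with quartiles of 4.89 and 7.05, against a median of 7.25 and quartiles of 6.02 and 8.58 for probe sets with 1 symbol. Of the unnamed probe sets, 73.8% had a mean under 7 and 4.15% a mean of 9 or more, against 44.3% and 19.1% of those with 1 symbol. Because dim probe sets keep background signal in their values and understate fold changes, each share below is set beside the share among single-symbol probe sets weighted to the same distribution of mean levels, in bins of 0.5. That comparison is a description, with no test, since probe sets are not replicates.

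The checks of the treatment and of the lines were as follows. MDM2, the ubiquitin ligase of p53, rose by 1.26 ± 0.10 in CAL51 at 24 h (adjusted p = 2.8e-07). CDKN1A, the p21 cell cycle inhibitor, averaged 9.65 in untreated CAL51, 11.62 at 24 h, 12.19 at 48 h, 10.995 in untreated CALDOX and 12.11 in treated CALDOX. In the same order TOP2A averaged 11.62, 11.42, 11.07, 10.66 and 10.24, and MKI67 11.01, 10.60, 10.05, 10.36 and 9.94. The epithelial markers KRT8, KRT18, EPCAM, KRT19 and CDH1 had mean levels of 12.58, 14.01, 12.13, 9.26 and 7.33, and the brightest probe sets of the blood, endothelial and fibroblast markers analysed here lay between 5.02 (CDH5) and 9.01 (COL1A1), a range that takes in CDH1. KRT19 averaged 6.59 in untreated CAL51 and 11.35 in untreated CALDOX, and CDH1 7.34 and 5.99. The mesenchymal markers VIM and FN1 had mean levels of 12.13 and 12.25, near that of EPCAM. VIM averaged 12.58 in untreated CAL51 and 10.86 in untreated CALDOX, and FN1 11.37 and 13.43. The breast receptors ESR1, PGR and ERBB2 had mean levels of 8.35, 6.15 and 9.96. With no detection calls in the files, these levels do not show whether a marker is absent. The brightest probe set of ABCB1, the P-glycoprotein drug efflux pump, averaged between 5.65 and 5.77 in the 5 groups. This single dim probe set does not show whether the gene is unchanged in CALDOX. Over the unnamed probe sets, correlations between arrays of a group ran from 0.9886 to 0.9961, and those between groups from 0.9746 to 0.9943.

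Most unnamed probe sets varied little between the conditions. The range of the 5 group means had a median of 0.20 log2 units, against 0.24 for single-symbol probe sets and 0.22 for those at the same levels. The SD between cultures of a group had a median of 0.12 in the unnamed set and 0.12 in single-symbol probe sets at the same levels. A range of at least 1 was seen in 252 unnamed probe sets, which is 2.15%, against 4.25% of single-symbol probe sets and 2.70% of those at the same levels. In 128 of the 252 (50.8%) the highest group was CAL51 at 24 h, and in 119 (47.2%) the lowest was untreated CALDOX. Among the 1745 single-symbol probe sets with such a range, CAL51 at 24 h was the highest group in 14.8% and untreated CALDOX the lowest in 25.6%. In bulk RNA such as this, less RNA per cell and fewer cells expressing a transcript cannot be told apart.

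**Figure D1:**
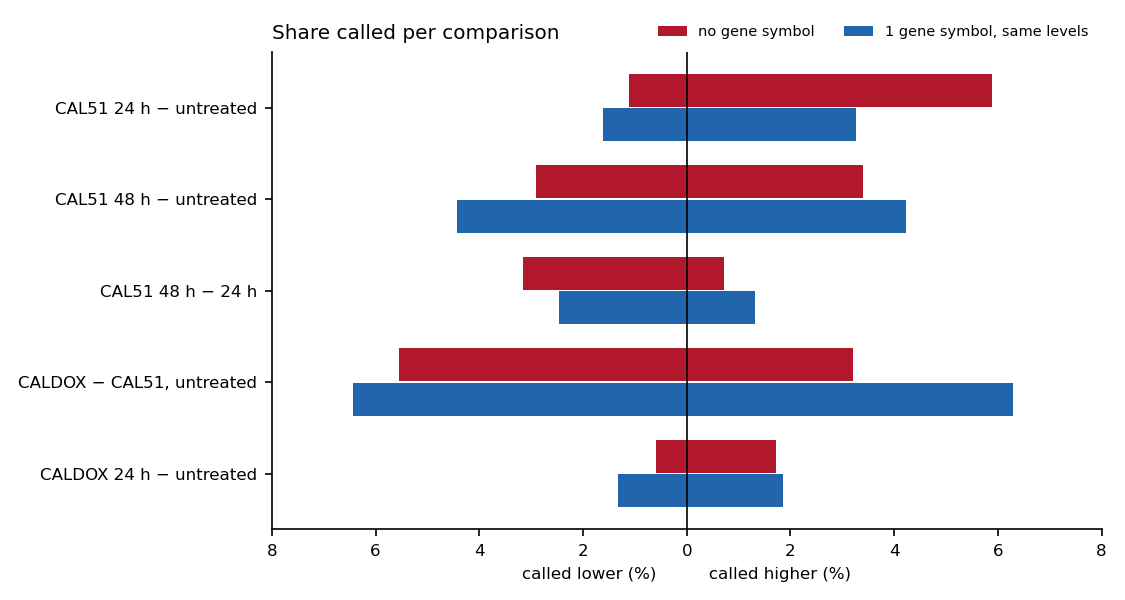
Share of probe sets called lower (left of 0) and higher (right of 0), in percent, in 5 comparisons, for the 11721 unnamed probe sets (red) and for single-symbol probe sets weighted to the same levels (blue). At 24 h in CAL51 the unnamed share called higher was 5.88% beside 3.26%, while in CALDOX against CAL51 it was 3.20% beside 6.30%.

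After 24 h in doxorubicin, unnamed probe sets of CAL51 rose far more often than they fell. With limma over all 54613 tested probe sets, at an adjusted p under 0.05, 689 unnamed probe sets rose and 130 fell, or 5.88% and 1.11%. The same call held for 5.45% of all tested probe sets in the higher direction and 2.64% in the lower, and for 3.26% and 1.62% of single-symbol probe sets at the same levels. Rises made up 84.1% of the unnamed calls, against 63.0% of the calls among single-symbol probe sets. The median change was 0.49 among the 689 and -0.32 among the 130, and over all unnamed probe sets it was -0.02, as it was over all tested. Rises of at least 2-fold numbered 33, or 0.282%, against 0.255% of all tested and 0.150% of single-symbol probe sets at the same levels. No unnamed probe set fell by as much (0.011% of all tested). The arrays of both groups did not overlap for 18.1% of unnamed probe sets, 21.6% of all tested and 16.8% of single-symbol probe sets at the same levels.

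The excess of rises was seen at mean levels up to 10. Above 10 it was seen only between 13.5 and 14, with 10% of 10 unnamed probe sets against 6.78%. In all 14 level bins with at least 100 unnamed probe sets, from 3 to 10, the share that rose was above the share of single-symbol probe sets in that bin. Between 6 and 6.5 it was 7.0% against 2.58%, between 7.5 and 8 it was 8.0% against 5.80%, and between 9 and 9.5 it was 16.4% against 10.1%. In the thinner bins above 10 the order was the reverse up to 12.5: the unnamed share was 5.33% of 75 against 9.58% between 10 and 10.5, 3.39% of 59 against 10.1% up to 11, 6.25% of 48 against 9.61% up to 11.5, 4.0% of 25 against 10.8% up to 12, and 0 of 9 against 8.76% up to 12.5. The share that fell was above the single-symbol share in 4 of the 14 bins. The ratio of the unnamed to the level-weighted share of rises was 1.80, and it was 1.16 when only probe sets with a mean at or above the median of the table were tested. Array weights, which gave 0.297 to replicate 2 of CAL51 at 24 h and 5.87 to replicate 1, left the ratio at 1.51, but called 1112 rises and 830 falls, so that rises made up 57.3% of the calls. The median of the hybridization control probe sets was 9.62 to 9.80 on the 3 arrays at 24 h and 9.33 to 9.48 on the untreated ones, without overlap. The GAPDH 3′ minus 5′ control difference did not overlap either, at -0.0237 to 0.0263 at 24 h and 0.0337 to 0.0876 untreated. Their part in the result was not tested. Without CAL51 24 h replicate 1 the falls numbered 78.

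**Figure D2:**
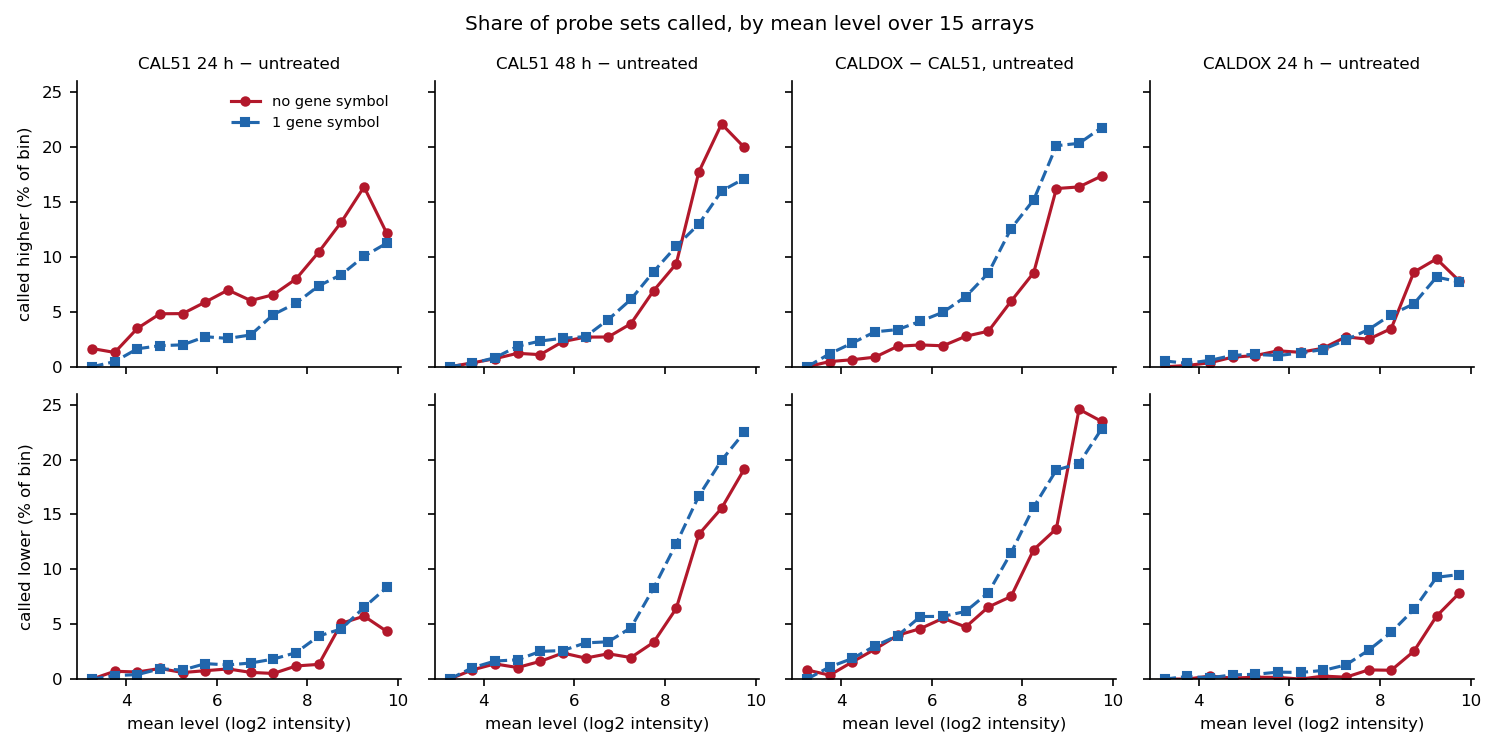
Percent of probe sets called higher (upper row) and lower (lower row) in each 0.5-wide bin of mean log2 intensity over 15 arrays, for unnamed (red circles) and single-symbol (blue squares) probe sets, in 4 comparisons. The red line lies above the blue in all 14 bins for rises in CAL51 at 24 h, and in none for rises in CALDOX against CAL51.

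These shares differed by the kind of probe set. Plain _at identifiers made up 83.5% of the unnamed set (9788) and 65.1% of the single-symbol set, while _s_at identifiers made up 6.79% and 24.2%. At 24 h, 534 of the _at probe sets rose (5.46%, against 2.85% of single-symbol probe sets of that suffix and level). Of the 833 with the _x_at suffix 89 rose (10.7% against 6.15%), and of the 796 with _s_at 52 rose (6.53% against 5.75%). By the leading digits of the identifier, 223 of 3396 beginning with 23 rose (6.57% against 3.16%). Of the 2635 beginning with 24, 174 rose (6.60% against 3.00%). Among the 599 beginning with 20, 32 rose (5.34% against 6.75%). In a further block of 182 the unnamed share was also the lower one (0.549% against 1.77%). The 33 rises of at least 2-fold comprised 27 _at, 5 _s_at and 1 _x_at probe sets.

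The member that rose furthest at 24 h was 207813_s_at. Its log2 intensities were 8.53, 8.56 and 8.60 in untreated CAL51, 10.55, 10.44 and 10.56 at 24 h, 10.95, 10.82 and 10.85 at 48 h, 10.16, 10.40 and 10.35 in untreated CALDOX, and 11.29, 11.29 and 11.28 in treated CALDOX. Untreated CAL51 lay below every other array, and treated CALDOX above every other. The rise was 1.95 ± 0.07 at 24 h (a log2 difference ± its standard error from limma, n = 3 arrays a group, adjusted p = 5.5e-11), which is 3.87-fold, and 2.31 ± 0.07 at 48 h (adjusted p = 1.8e-12). Of the 41091 single-symbol probe sets, a probe set of FAS, the death receptor and p53 target, had the most like pattern over the 15 arrays (Pearson r = 0.993). Such correlations share the arrays and the group differences and say nothing of shared control.

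Next by size was 229483_at. Its values were 5.15, 4.77 and 5.08 in untreated CAL51, 6.53, 6.22 and 7.09 at 24 h, 6.06, 6.20 and 6.61 at 48 h, 5.04, 4.996 and 5.49 in untreated CALDOX, and 5.52, 5.26 and 5.56 in treated CALDOX. Every treated CAL51 array lay above every other array, and the cultures at 24 h spread over nearly 1 log2 unit. It rose by 1.61 ± 0.19 at 24 h (adjusted p = 3.8e-05) and by 1.29 ± 0.19 at 48 h, and its pattern was most like that of EHD1, an endocytic recycling protein (r = 0.948). In CALDOX the change was 0.27 ± 0.19 and was not called.

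The third, 201236_s_at, read 8.57, 8.66 and 8.36 in untreated CAL51, 10.15, 10.04 and 10.15 at 24 h, and 10.55, 10.62 and 10.66 at 48 h. In CALDOX it read 10.17, 10.19 and 10.23 untreated and 10.71, 10.94 and 10.81 treated. As with 207813_s_at, the untreated resistant line already stood at about the level that CAL51 reached at 24 h. It rose by 1.58 ± 0.08 at 24 h (adjusted p = 2.4e-09) and by 2.08 ± 0.08 at 48 h (adjusted p = 4.4e-11), was higher by 1.66 ± 0.08 in CALDOX, and had its most like pattern in ATP6AP2, an accessory subunit of the vacuolar ATPase (r = 0.992).

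The other members named by size at 24 h were 241390_at, 242468_at and 232544_at. The first of them rose by 1.56 ± 0.14 (adjusted p = 1.5e-06), from a mean of 6.24 to 7.80, and its pattern was most like that of ZSWIM6 (r = 0.995). The second, 242468_at, rose by 1.43 ± 0.16 (adjusted p = 1.4e-05) and was lower in untreated CALDOX than in CAL51 by a change of -1.34 ± 0.16, with values of 5.31, 5.002 and 5.10 below every other array. Its rise in treated CALDOX, 0.93 ± 0.16, took it to a mean of 6.06, still below the untreated CAL51 mean of 6.48. The last, 232544_at, rose by 1.42 ± 0.11 (adjusted p = 4.6e-07) and was 0.97 ± 0.11 above untreated CAL51 at 48 h, a difference between the times of -0.45 ± 0.11 (adjusted p = 0.02). Their most like patterns were those of INAFM2 (r = 0.982) and IKBIP (r = 0.975).

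**Figure D3:**
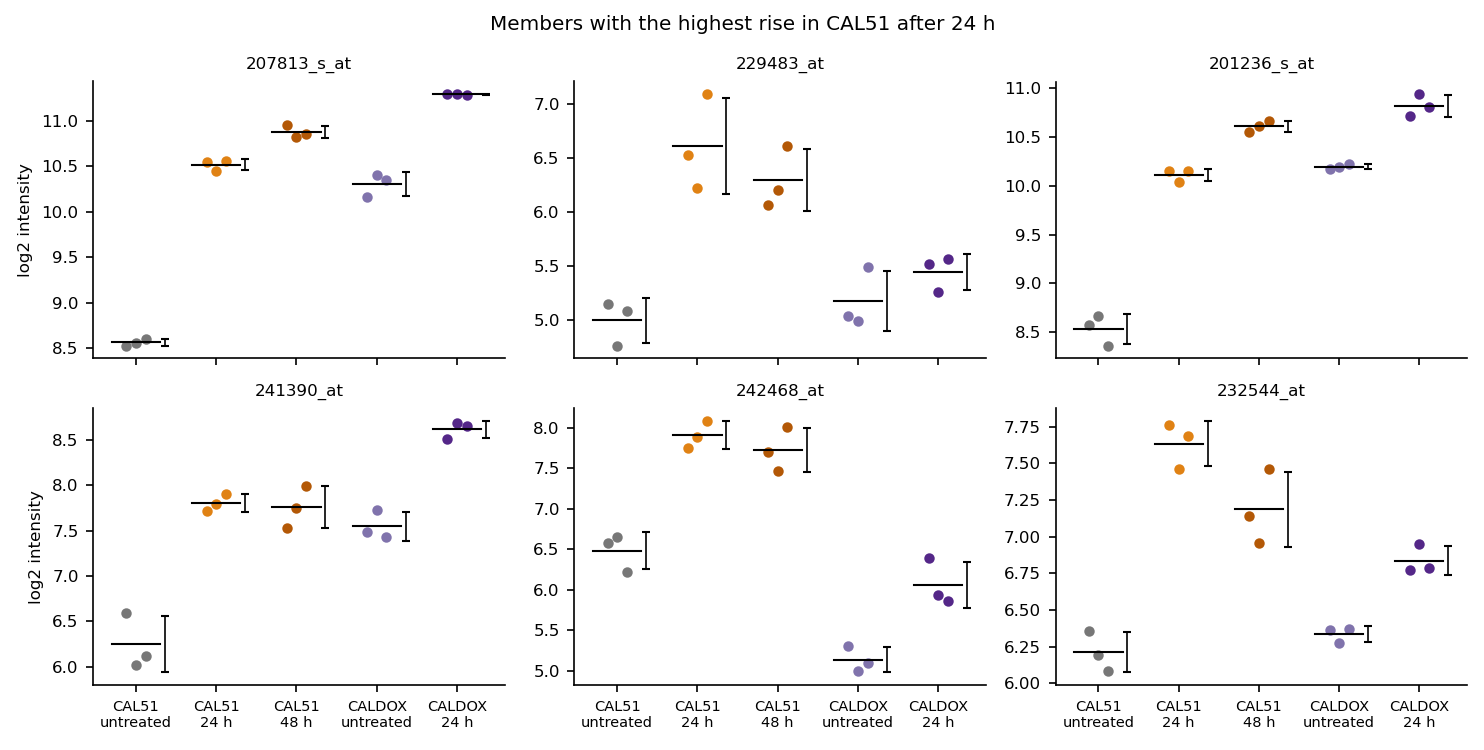
Log2 intensity (vertical axis) of the 6 unnamed probe sets with the highest rise in CAL51 at 24 h, on every array of the 5 groups. Points are arrays, horizontal lines group means and error bars the SD (n = 3). In all 6 panels the 24 h and 48 h arrays of CAL51 lie above the untreated ones.

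Of the unnamed probe sets that fell at 24 h, the lowest was 223839_s_at, picked out after its values were seen. It read 9.65, 9.43 and 9.60 in untreated CAL51, 8.71, 8.59 and 8.74 at 24 h, and 9.72, 9.59 and 9.72 at 48 h. The 24 h arrays lay below all the others of CAL51, and the 48 h arrays overlapped the untreated ones. The change was -0.88 ± 0.08 at 24 h (adjusted p = 3.7e-06), and from 24 h to 48 h it rose by 1.00 ± 0.08 (adjusted p = 1.7e-05). Treated CALDOX, at 8.48, 8.41 and 8.62, lay below untreated CALDOX at 8.996, 9.13 and 9.25.

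At 48 h the unnamed shares called lay below the level-weighted ones in both directions. With limma, 398 unnamed probe sets rose and 341 fell, or 3.40% and 2.91%, against 6.99% and 7.53% of all tested probe sets and 4.22% and 4.42% of single-symbol probe sets at the same levels. Rises made up 53.9% of the calls. At least 2-fold rises numbered 23, or 0.196%, against 0.434% of all tested and 0.248% of single-symbol probe sets at the same levels. Of the 23, 11 had the _s_at suffix and 11 the _at suffix. No fall reached 2-fold (0.0201% of all tested). The arrays of both groups were separate for 18.0% of unnamed probe sets, 28% of all tested and 20.4% at the same levels. The share that rose was above the single-symbol share in 4 of the 14 level bins, and the share that fell in none of them. Falls at 48 h changed when single arrays were left out: there were 223 without untreated CAL51 replicate 2 and 208 without CAL51 48 h replicate 1.

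Besides 207813_s_at and 201236_s_at, the members that rose furthest by 48 h were 223000_s_at, 1564706_s_at, 241390_at and 1559322_at. The values of 223000_s_at were 10.12, 9.82 and 10.04 in untreated CAL51, 10.92, 10.69 and 11.05 at 24 h, 11.55, 11.51 and 11.61 at 48 h, 11.34, 11.49 and 11.39 in untreated CALDOX, and 11.65, 11.75 and 11.62 in treated CALDOX. The 3 CAL51 groups were ordered by time without overlap. It rose by 1.57 ± 0.09 (adjusted p = 6.9e-09) at 48 h, of which 0.67 ± 0.09 came after 24 h, and its pattern was most like that of SPINT2, a membrane serine protease inhibitor (r = 0.989).

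The rise of 1564706_s_at was 1.56 ± 0.11 at 48 h (adjusted p = 4.9e-08), with a most like pattern in DGKA, diacylglycerol kinase alpha (r = 0.987). The rise of 241390_at was 1.51 ± 0.14 (adjusted p = 8.7e-07), against 1.56 at 24 h. The rise of 1559322_at was 1.43 ± 0.10 (adjusted p = 3.7e-08), against 1.00 ± 0.10 at 24 h, and its most like pattern was that of IER5, an immediate early response gene (r = 0.988). For these 3, group means in untreated CAL51 were 6.04, 6.24 and 5.58.

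Between 24 h and 48 h unnamed probe sets were called lower more often than higher. Compared directly, 84 were higher at 48 h and 371 lower, or 0.717% and 3.17%, against 2.25% and 4.27% of all tested probe sets and 1.31% and 2.46% of single-symbol probe sets at the same levels. Higher values made up 18.5% of the calls, against 36.6% among single-symbol probe sets. The arrays of both times were separate for 14.7% of unnamed probe sets, 20.1% of all tested and 14.3% at the same levels. The ratio of unnamed to level-weighted shares was 1.29 for lower values, and 0.841 when only probe sets with a mean at or above the median of the table were tested. The higher calls numbered 148 without CAL51 48 h replicate 3, and the lower calls 203 and 227 without its replicates 1 and 2. Both comparisons use the arrays at 24 h: for the 371 probe sets, the median change was 0.41 at 24 h and -0.03 at 48 h, each against untreated CAL51.

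An example of that course is 1559360_at, the lowest in this comparison, singled out after its values were seen. It read 6.50, 5.94 and 6.16 in untreated CAL51, 7.25, 6.88 and 7.74 at 24 h, and 6.23, 6.24 and 6.46 at 48 h. The 24 h arrays stood above all the others of CAL51, and the 48 h arrays lay within the range of the untreated ones. The change from 24 h to 48 h was -0.98 ± 0.17 (adjusted p = 0.0021).

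The 689 probe sets that rose at 24 h were followed over all arrays. Against the mean of untreated CAL51 their median difference was 0.49 at 24 h, 0.23 at 48 h, -0.10 in untreated CALDOX and 0.07 in treated CALDOX. These differences share the untreated CAL51 arrays, and the first was used to choose the probe sets. For the 130 that fell the medians were -0.32, -0.24, -0.16 and -0.21 in the same order.

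**Figure D4:**
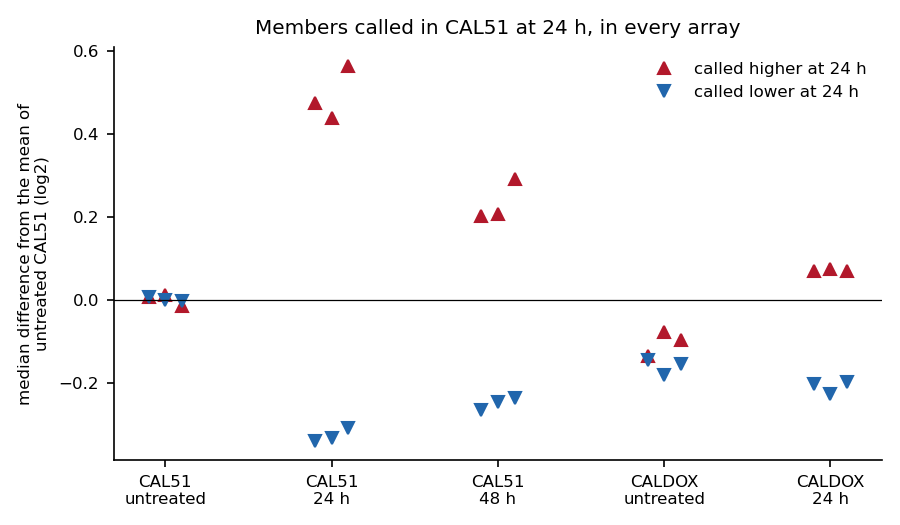
Median difference from the mean of untreated CAL51 (log2, vertical axis) on each of the 15 arrays, for the 689 unnamed probe sets called higher at 24 h in CAL51 (red) and the 130 called lower (blue). The red points lie at 0.44 to 0.57 on the arrays that chose them, lower at 48 h, and below 0 in untreated CALDOX.

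Between the untreated lines, unnamed probe sets were more often lower in CALDOX than higher. With limma, 375 were higher and 650 lower, or 3.20% and 5.55%, against 9.32% and 9.75% of all tested probe sets and 6.30% and 6.44% of single-symbol probe sets at the same levels. Higher values made up 36.6% of the unnamed calls and 49.8% of the single-symbol calls. In none of the 14 level bins was the unnamed share of higher values above the single-symbol share. At least 2-fold differences numbered 39 higher and 35 lower, or 0.333% and 0.299%, against 0.956% and 0.879% of all tested and 0.660% and 0.673% at the same levels. The arrays of the lines were separate for 19.4% of unnamed probe sets, 31.6% of all tested and 23.8% at the same levels. Of the _s_at probe sets 105 were lower in CALDOX (13.2%, against 12.5% of single-symbol probe sets of that suffix and level), and of the _at probe sets 491 (5.02% against 5.90%), so both shares lay near those of named probe sets. The median of the poly-A control probe sets was 9.87 to 10.06 on the untreated CALDOX arrays and 10.27 to 10.29 on the untreated CAL51 arrays, and its part in the result was not tested.

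The member highest in CALDOX relative to CAL51 was 229830_at. It read 6.24, 6.47 and 6.28 in untreated CAL51, 6.70, 6.66 and 6.82 at 24 h, 7.33, 7.14 and 7.39 at 48 h, 8.41, 8.72 and 8.55 in untreated CALDOX, and 9.05, 9.03 and 8.99 in treated CALDOX. The 5 groups did not overlap. The difference between the untreated lines was 2.23 ± 0.09 (adjusted p = 9.6e-12), or 4.68-fold, and the most like pattern was that of ETHE1, a mitochondrial sulfur dioxygenase (r = 0.996).

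The values of 214033_at were 7.25, 7.46 and 7.29 in untreated CAL51, 7.70, 8.08 and 7.57 at 24 h, 8.23, 8.28 and 8.29 at 48 h, 9.47, 9.58 and 9.50 in untreated CALDOX, and 9.77, 9.72 and 9.94 in treated CALDOX. Here too CAL51 rose with time in the drug and stayed below CALDOX. The difference between the lines was 2.18 ± 0.10 (adjusted p = 9.1e-11), and the most like pattern was that of GPRC5B, an orphan G protein-coupled receptor (r = 0.993).

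By contrast 235947_at separated the lines, with no call after treatment in either. It read 5.19, 4.92 and 4.75 in untreated CAL51, 5.27, 5.39 and 5.24 at 24 h, 5.08, 5.51 and 5.16 at 48 h, 6.91, 7.33 and 7.06 in untreated CALDOX, and 7.07, 6.89 and 6.95 in treated CALDOX. All 6 CALDOX arrays lay above all 9 CAL51 arrays. The difference was 2.15 ± 0.13 (adjusted p = 1.1e-09), the 24 h changes were 0.34 ± 0.13 in CAL51 and -0.13 ± 0.13 in CALDOX and were not called, and the most like pattern was that of TRIB2, a pseudokinase (r = 0.993).

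Of the rest named on this side, 207558_s_at was higher in CALDOX by 1.89 ± 0.10 (adjusted p = 1.9e-10), with IRAG2 as its most like pattern (r = 0.995). The difference for 236125_at was 1.86 ± 0.14 (adjusted p = 3.2e-08), from values of 6.01, 5.69 and 5.68 in CAL51 to 7.57, 7.83 and 7.56 in CALDOX. Its most like pattern was that of ABCC1, the efflux transporter also known as multidrug resistance protein 1 (r = 0.988). For 215103_at the difference was 1.84 ± 0.14 (adjusted p = 2.7e-08), with LOC100130987 as the most like pattern (r = 0.990).

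On the lower side, 212148_at showed the widest difference of any unnamed probe set. It read 10.22, 9.89 and 9.99 in untreated CAL51, 9.72, 9.59 and 9.87 at 24 h, 9.49, 9.52 and 9.62 at 48 h, 7.08, 7.24 and 7.20 in untreated CALDOX, and 6.66, 6.77 and 6.67 in treated CALDOX. Both CALDOX groups lay below all CAL51 arrays, and the treated one below the untreated one. The difference between the lines was -2.86 ± 0.09 (adjusted p = 4.1e-13), a level 7.26-fold lower, and the most like pattern was that of HMGA2, an architectural chromatin protein (r = 0.998).

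The second, 232797_at, read 7.08, 6.96 and 6.96 in untreated CAL51, 7.56, 7.20 and 7.77 at 24 h, 7.20, 7.12 and 7.40 at 48 h, 4.27, 4.65 and 4.66 in untreated CALDOX, and 4.97, 5.02 and 5.21 in treated CALDOX. Treatment raised it in both lines at 24 h, by 0.51 ± 0.13 in CAL51 and 0.54 ± 0.13 in CALDOX (adjusted p = 0.02 in both), without closing the gap between them. The difference between the lines was -2.47 ± 0.13 (adjusted p = 3.5e-10), and the most like pattern was that of THBS1, the matrix glycoprotein thrombospondin 1 (r = 0.998).

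The values of 1553613_s_at were 9.06, 9.42 and 8.99 in untreated CAL51, 9.44, 9.38 and 9.53 at 24 h, 8.73, 8.80 and 8.75 at 48 h, 6.71, 6.70 and 6.80 in untreated CALDOX, and 6.98, 6.76 and 6.74 in treated CALDOX. CAL51 at 48 h lay below the other CAL51 groups, and the CALDOX groups overlapped. The difference between the lines was -2.42 ± 0.10 (adjusted p = 8.7e-12), and the most like pattern was that of TNFRSF11B, which encodes osteoprotegerin (r = 0.992).

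The remaining named members were lower in CALDOX by similar amounts. The change was -2.28 ± 0.09 for 213260_at (adjusted p = 4.2e-12), with TPM4, a tropomyosin, as its most like pattern (r = 0.995). For 203423_at it was -2.28 ± 0.10 (adjusted p = 3.8e-11), with HTRA1, a secreted serine protease (r = 0.998). For 205253_at it was -2.22 ± 0.10 (adjusted p = 3.4e-11), with CCDC80, a matrix-associated protein (r = 0.994).

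**Figure D5:**
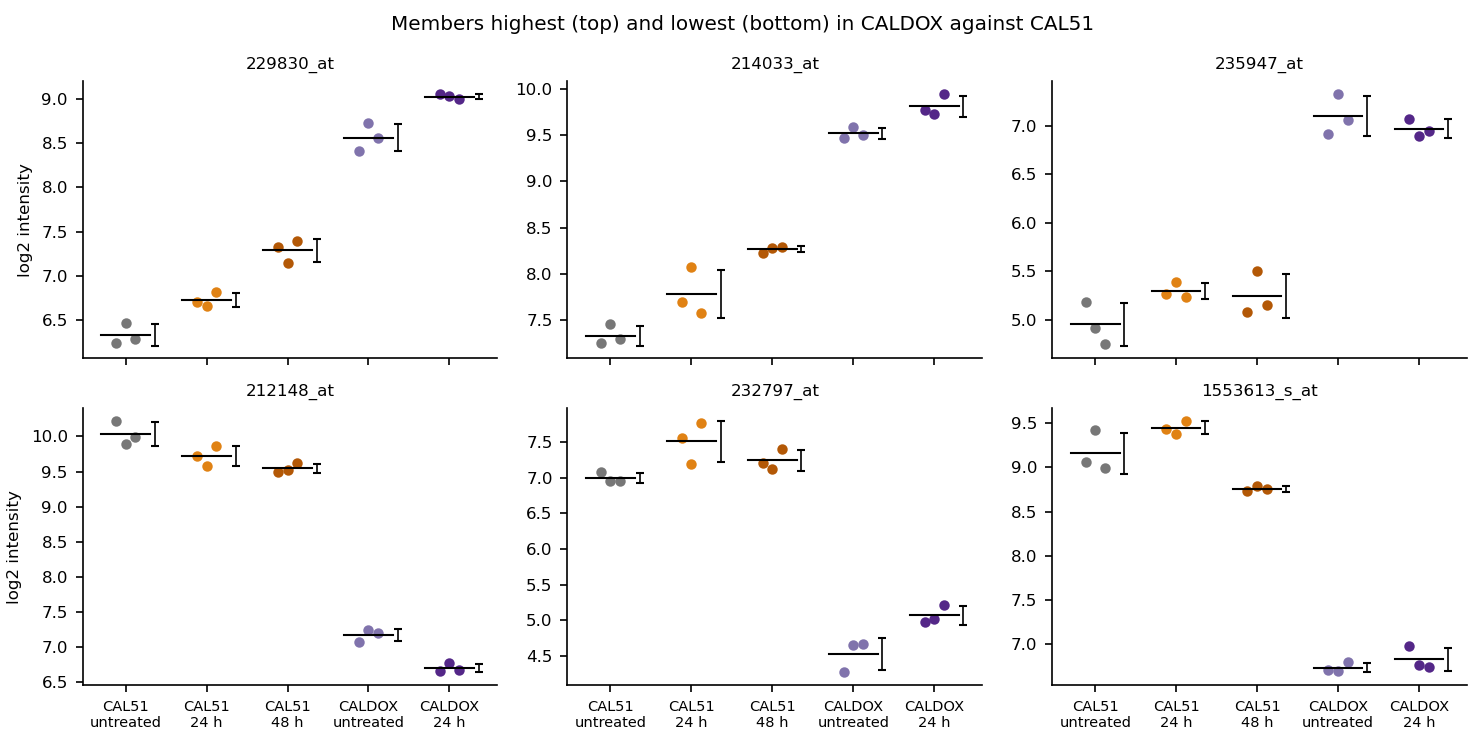
Log2 intensity (vertical axis) of the 3 unnamed probe sets highest (top) and the 3 lowest (bottom) in untreated CALDOX relative to untreated CAL51, on every array of the 5 groups. Points are arrays, horizontal lines group means and error bars the SD (n = 3). In every panel the 6 CALDOX arrays are separate from the 9 CAL51 arrays.

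In CALDOX given 4 µM doxorubicin for 24 h, rises outnumbered falls among unnamed probe sets. With limma, 201 unnamed probe sets rose and 70 fell, or 1.71% and 0.597%, against 3.17% and 2.72% of all tested probe sets and 1.85% and 1.33% of single-symbol probe sets at the same levels. Rises made up 74.2% of the calls, against 51.5% among single-symbol probe sets. The poly-A control median was 10.34 to 10.39 on the treated CALDOX arrays and 9.87 to 10.06 on the untreated ones, without overlap, and its part in the result was not tested. These counts changed when single arrays were left out, which also leaves fewer arrays to the fit. The rises numbered 132 and 125 without untreated CALDOX replicates 1 and 3. Without treated CALDOX replicates 1, 2 and 3 they numbered 125, 128 and 111. The falls numbered 46 and 43 without untreated CALDOX replicates 2 and 3, and 42, 43 and 41 without the treated replicates. Treated and untreated arrays were separate for 17.1% of unnamed probe sets, 25.7% of all tested and 18.4% at the same levels. At least 2-fold changes were seen in 1 unnamed probe set in each direction, or 0.00853%. Of all tested, 0.104% rose and 0.011% fell by that size, and of single-symbol probe sets at the same levels 0.0845% and 0.00422%.

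The rise was in 241390_at, which read 7.48, 7.73 and 7.42 in untreated CALDOX and 8.51, 8.68 and 8.66 in treated CALDOX. In CAL51 it read 6.60, 6.01 and 6.12 untreated, 7.71, 7.79 and 7.91 at 24 h, and 7.53, 7.75 and 7.996 at 48 h. Treated arrays lay above untreated ones in each line. The rise in CALDOX was 1.07 ± 0.14 (adjusted p = 0.00012), and untreated CALDOX stood 1.30 ± 0.14 above untreated CAL51.

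The fall was in 1558048_x_at, which read 4.36, 5.38 and 5.37 in untreated CALDOX and 3.73, 3.76 and 3.98 in treated CALDOX. In CAL51 it read 4.24, 4.20 and 4.45 untreated, 3.60, 3.33 and 3.75 at 24 h, and 3.55, 3.32 and 3.52 at 48 h. All treated arrays lay below all untreated ones, at the dim end of the scale, and replicate 1 of untreated CALDOX lay about 1 log2 unit below the others of its group. The change in CALDOX was -1.21 ± 0.20 (adjusted p = 0.0011), it was -0.73 ± 0.20 in CAL51 at 24 h (adjusted p = 0.03), and the most like pattern was that of NUCKS1, a nuclear chromatin-associated protein (r = 0.967).

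The 24 h comparisons in CAL51 and in CALDOX share no arrays. Both called 127 unnamed probe sets higher, which is 18.4% of the 689 in CAL51 and 63.2% of the 201 in CALDOX. Among single-symbol probe sets the shared rises were 36.6% of the CAL51 list and 54.5% of the CALDOX list. Another 16 fell in both, 12.3% of the 130 and 22.9% of the 70. The shared falls among single-symbol probe sets were 33.8% of the CAL51 list and 31.3% of the CALDOX list. In 1 unnamed probe set a rise in CAL51 stood beside a fall in CALDOX. Of the 689, 89.4% had a CALDOX change above 0, with a median of 0.19. No single-symbol share is set beside this, so it does not show a trait particular to unnamed probe sets.

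The difference between the 24 h responses was tested directly, with the doses as given. With limma, 13 unnamed probe sets responded more upward in CALDOX and 63 more upward in CAL51, or 0.111% and 0.537%, against 0.335% and 0.549% of all tested probe sets and 0.195% and 0.284% of single-symbol probe sets at the same levels. Of the 63, 59 were also called at 24 h in CAL51 and 10 in CALDOX. The median change of the 63 was 0.76 in CAL51 and 0.07 in CALDOX. The arrays that give these calls and medians also chose the 63, so they are no separate evidence. In 7, or 0.0597%, the difference was at least 2-fold, against 0.0549% of all tested and 0.0488% of single-symbol probe sets at the same levels. The share of the 63 is close to that of all tested probe sets and above that of single-symbol probe sets at the same levels. The control probe sets that separate treated from untreated arrays in each line, hybridization and GAPDH controls in CAL51 and poly-A controls in CALDOX, enter this comparison too, and their part was not tested. Both counts changed when single arrays were left out, which also leaves fewer arrays to the fit. The 63 became 97 without CAL51 24 h replicate 2 and 37 without its replicate 3, 32 without untreated CAL51 replicate 3, 29 and 30 without untreated CALDOX replicates 2 and 3, and 32, 38 and 40 without treated CALDOX replicates 1, 2 and 3. The 13 became 20 without CAL51 24 h replicate 2 and 8 without untreated CALDOX replicate 1.

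The widest difference was that of 229483_at, described for its rise in CAL51, at -1.34 ± 0.27 (adjusted p = 0.025). It missed the threshold, with an adjusted p of 0.052 to 0.079, when untreated CAL51 replicate 2 or 3, CAL51 24 h replicate 1, untreated CALDOX replicate 3, or treated CALDOX replicate 1 or 2 was left out. Next was 240868_at, which read 4.59, 4.36 and 4.60 in untreated CAL51, 5.83, 5.62 and 5.99 at 24 h, 5.16, 5.27 and 5.68 at 48 h, 4.22, 4.33 and 4.65 in untreated CALDOX, and 4.34, 4.50 and 4.46 in treated CALDOX. In CAL51 both treated groups lay above the untreated one, with a rise of 1.30 ± 0.13 at 24 h, while the CALDOX groups overlapped. The difference of responses was -1.27 ± 0.19 (adjusted p = 0.0029), and the most like pattern was that of FNBP1, a membrane-bending adaptor of the actin system (r = 0.959).

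The values of 235419_at were 7.55, 7.66 and 7.70 in untreated CAL51, 8.80, 8.55 and 8.91 at 24 h, 8.13, 8.22 and 8.38 at 48 h, 7.05, 6.73 and 6.78 in untreated CALDOX, and 6.63, 6.95 and 6.83 in treated CALDOX. The CAL51 groups did not overlap, and both CALDOX groups, which overlapped, lay below all of them. The difference of responses was -1.17 ± 0.15 (adjusted p = 0.0011), and the most like pattern was that of ENAH, an actin filament regulator (r = 0.982).

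In 232889_at the values were 7.76, 7.39 and 7.44 in untreated CAL51, 9.02, 8.56 and 9.16 at 24 h, 8.04, 7.95 and 8.48 at 48 h, 7.29, 7.59 and 7.52 in untreated CALDOX, and 7.74, 7.72 and 7.75 in treated CALDOX. The 24 h arrays of CAL51 stood above every other array. The difference of responses was -1.12 ± 0.21 (adjusted p = 0.018), and it missed the threshold (adjusted p of 0.052 to 0.056) without untreated CAL51 replicate 2 or 3, CAL51 24 h replicate 1, or untreated CALDOX replicate 2 or 3. The most like pattern was that of REV3L, the catalytic subunit of translesion DNA polymerase zeta (r = 0.978).

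For 243974_at the difference was -1.04 ± 0.17 (adjusted p = 0.0063), with PTPRG, a receptor tyrosine phosphatase, as the most like pattern (r = 0.960). For 1566482_at it was -1.01 ± 0.15 (adjusted p = 0.003), with FBLIM1, a focal adhesion protein (r = 0.970). In the other direction the widest was 242870_at, taken up after its values were seen. It read 9.03, 9.04 and 8.94 in untreated CALDOX and 9.92, 9.92 and 9.87 in treated CALDOX, against 9.35, 9.36 and 9.22 in untreated CAL51 and 9.27, 9.37 and 9.20 at 24 h. The CALDOX groups were separate and the CAL51 groups overlapped, and the difference of responses was 0.92 ± 0.10 (adjusted p = 0.00026).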

How the data were processed

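The authors deposited RMA values for 15 arrays, per the submitters' processing notes, with 1 array for each of 3 independent cultures of 5 groups, per the labels. RMA combines a background correction, quantile normalization and probe summarization. The version of RMA was not given in the sources used here. Because no label names the log base, the range of the table the authors deposited (3.08347 to 14.7625) was the ground for reading it as log2 intensity. The number of arrays limits the precision. No normalization was added, and probe sets were named only from the platform annotation, dated 2016.

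Group means were estimated for all 54613 non-control probe sets from the 15 arrays by limma 3.58.1 under R 4.3.3 (functions lmFit and eBayes), with 10 residual and 6.27 prior degrees of freedom. Two-sided p-values received the Benjamini-Hochberg adjustment across the 54613 in each of 6 comparisons. A probe set was called at an adjusted p under 0.05. The procedure was tested on simulated data. In each comparison up to 6 called members at each end of the range of changes were named, if changed at least 2-fold and, except for the difference of responses, without overlap between arrays. Every array value is given for the first 3. The most like pattern is the highest Pearson r over 15 arrays among single-symbol probe sets. The members and lists were chosen with earlier results of these data known.

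Alternatives were a fit to the compared groups alone, repeated quantile normalization, centring, the spread of each array as a covariate, array weights, an intensity trend in the prior, a filter on the mean, a replicate block, plain _at identifiers, narrower bins, named probe sets with several symbols added, and each array left out. For level-weighted shares, array weights and leaving out arrays were chosen after seeing the data.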

Additional observations from a re-analysis of the deposited data

Results flagged for a closer look

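These are differences between the 24 h responses of the lines, tested as an interaction with limma, and the doses differed between the lines. Of the unnamed probe sets, 13 responded more upward in CALDOX and 63 less upward, or 0.111% and 0.537%, against 0.335% and 0.549% of all tested probe sets. Neither count stands above the share of all tested. Among single-symbol probe sets at the same levels the shares were 0.195% and 0.284%. Against these the share of the 63 lay above, at a ratio of 1.89, and that of the 13 below. Among members named for their size, the response of CALDOX minus that of CAL51 was -1.34 for 229483_at, -1.27 for 240868_at, -1.17 for 235419_at, -1.12 for 232889_at, -1.04 for 243974_at and -1.01 for 1566482_at. Of members named for their CAL51 rise, those also called gave -0.97 for 207813_s_at, -0.96 for 201236_s_at, -0.93 for 232544_at and -0.63 for 223000_s_at. The difference was not called for 242468_at (-0.50), 241390_at (-0.49), 1559322_at (-0.42) and 1564706_s_at (-0.41). The CAL51 arrays at 24 h that chose members by their 24 h rise also enter this difference. In 207813_s_at and 201236_s_at untreated CALDOX already stood 1.74 ± 0.07 and 1.66 ± 0.08 above untreated CAL51, while for 232544_at that difference was 0.13 ± 0.11 and was not called.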

How the results depend on the processing

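Counts of called members moved more than the changes of named members, of which 712 results over the alternatives stayed on their side of the threshold, 11 missed it and none turned direction. With array weights, CAL51 at 24 h gave 1112 higher and 830 lower, 48 h against 24 h 401 and 743 (35.1% higher), treated CALDOX 617 and 297, the difference of responses 167 and 298, and 394 members, in place of 143, were called the same way in both 24 h responses. With only the compared groups, the lower counts were 43 at 24 h and 217 at 48 h, and 48 h against 24 h gave 20 higher and 119 lower. With the spread of each array as a covariate, the lower counts were 220 at 24 h and 514 at 48 h, 48 h against 24 h gave 170 higher, treated CALDOX 367 and 131, and the difference of responses 28 higher. The filter on the mean gave 301 higher at 24 h (73.8% of calls), 203 lower for 48 h against 24 h (34.3% higher), 415 lower in CALDOX and 20 higher for the difference of responses, and ratios to the level-weighted share of 1.16 for rises at 24 h and 0.841 for falls from 24 h to 48 h. With plain _at identifiers alone, the higher counts were 53 for 48 h against 24 h, 243 in CALDOX and 8 for the difference of responses, and treated CALDOX had 39 lower. An intensity trend gave 21 higher for the difference of responses.

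Leaving out single arrays gave, higher and lower, 533 to 708 and 78 to 175 at 24 h, 317 to 477 and 208 to 425 at 48 h, 56 to 148 and 203 to 420 for 48 h against 24 h, 299 to 407 and 497 to 748 in CALDOX, 111 to 268 and 41 to 92 in treated CALDOX, and 8 to 20 and 29 to 97 for the difference of responses. The 78 was without CAL51 24 h replicate 1. The ratio for rises at 24 h stayed between 1.72 and 2.10.

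The replicate numbers were not treated as pairs. Of 30 pairs with the same number, 8 had a correlation of deviations over 0.1, and the highest was 0.34. The median was -0.006 for these pairs and 0.005 for pairs with other numbers. Of the 15 arrays, 8 were closest to those of their own number. Whether cultures of the same number shared a batch was not tested. With the replicate block the counts higher and lower were 670 and 118 at 24 h, 393 and 317 at 48 h, 91 and 365 for 48 h against 24 h, 368 and 628 in CALDOX, 189 and 67 in treated CALDOX, and 13 and 61 for the difference of responses. The causes of these movements were not tested. There are 3 arrays a group, and the files used hold no detection calls, so a low value does not show that a transcript is missing.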
